A study of Mus musculus with 8 samples.

Results

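Collagens and laminins are the main structural proteins that cells lay down around themselves, and their genes are described here in mouse embryonic stem cells (mESCs). The genes were taken by name from the table of the whole series: every gene named Col, digits, a, digits, and every gene named Lam, the letter a, b or c, and a digit. This rule found 51 of the 19429 listed genes, of which 40 encode collagen chains and 11 encode laminin chains. In the GENCODE M21 annotation 55 genes fit the same rule, and the 4 that were not listed, Col4a3, Col9a1, Col10a1 and Col28a1, were not analysed here. The 51 genes were separated by the known place of their products into 18 basement membrane genes, 11 fibrillar collagen genes and 22 other collagen genes.

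RNA-seq was performed on the mESC line LF2, in which both alleles of Tet1 encode a protein with a C-terminal FLAG tag followed by a separately translated fluorescent protein. WT lines 2 and 5 carry wild-type TET1, and D2018A lines 7 and 8 carry a mutation that replaces an aspartate near the TET1 C-terminus with alanine on both alleles. All lines share the tag, the parental line and culture with LIF and serum, and each is a clone. The study describes a deletion elsewhere in the genome of its WT cells that its D2018A cells lack. Each line gave 2 technical replicates, so that 8 libraries are described, 4 per genotype. Only the level of each gene as the authors' mean over all libraries of their fit was used, so the values below pool both genotypes, carry no SD and no n, and support no statement on WT against D2018A. The smallest means show 12 single-read steps, which points to 4 libraries beyond the 8 described, and the line and genotype of such libraries are not known here.

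A basement membrane is a thin sheet of matrix beneath cell layers. Laminins are trimers of an alpha, a beta and a gamma chain, which assemble into a network at the cell surface, and type IV collagen forms a further network joined to it. In the early embryo such a sheet lies between the epiblast and the primitive endoderm. Fibrillar collagens instead pack side by side into the fibres of connective tissue, and the chains of both kinds wind together into a triple helix built from repeats of glycine and any pair of residues (Gly-X-Y).

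This difference in build is written in the coding sequences. A run was counted where at least 5 Gly-X-Y triplets followed each other without a break in the longest reading frame of each gene. The 11 fibrillar genes held 2 to 3 runs, and the longest run had 216 to 344 triplets with a median of 338, which was 66.0% to 96.4% of all triplets in runs. The 5 type IV genes held 22 to 27 runs with 426 to 444 triplets in all, and the longest run had only 40 to 66 triplets. Col15a1 and Col18a1 encode multiplexins, basement membrane collagens with many breaks in the helix, and held 11 and 14 runs with a longest run of 30 triplets in each. The 22 other collagens ranged from 2 to 21 runs and the laminins held none. The stretches below show what a break looks like, with the glycine codons that belong to runs in capitals. The Col4a1 stretch is codons 143 to 192, spliced from exons 7 to 10 of 52 (minus strand, chr8:11244380-11245225, GRCm38), and was centred on a break. The Col1a1 stretch is codons 651 to 700 from the middle of its longest run, spliced from exons 30 to 32 of 51 (plus strand, chr11:94945368-94945816). Both are from GENCODE M21 transcripts.
Col4a1: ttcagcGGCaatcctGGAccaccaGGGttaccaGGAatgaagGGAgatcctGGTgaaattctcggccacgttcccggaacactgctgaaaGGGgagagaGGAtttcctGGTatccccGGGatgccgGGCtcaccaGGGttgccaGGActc
Col1a1: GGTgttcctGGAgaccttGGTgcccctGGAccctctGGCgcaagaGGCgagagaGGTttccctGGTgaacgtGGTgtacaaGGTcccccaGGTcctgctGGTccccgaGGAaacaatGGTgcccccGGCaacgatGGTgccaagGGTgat
In Col4a1, 13 of the 50 codons were glycine codons of a run and a gap without them lies in the middle. In Col1a1, 17 of 50 were, evenly spaced with no gap.

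**Figure D1:**
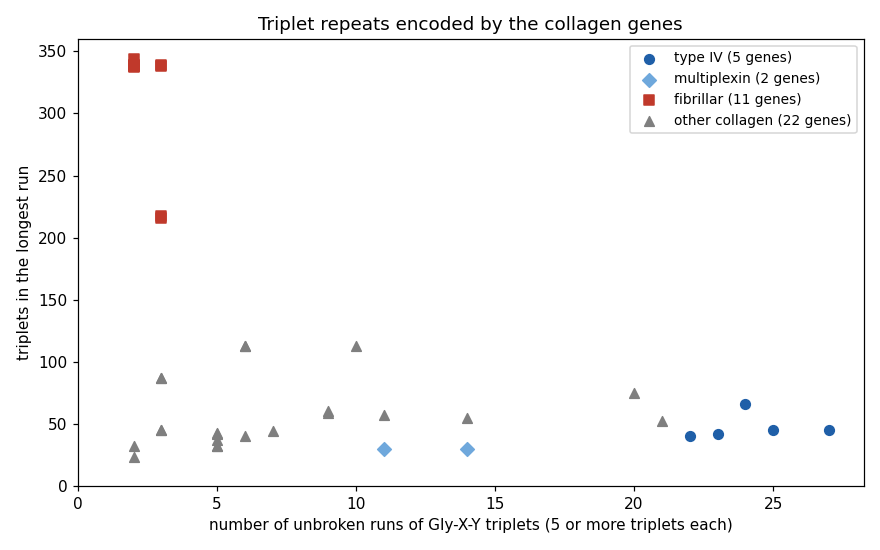
Each point is 1 collagen gene, with the number of unbroken Gly-X-Y runs of at least 5 triplets on the x axis and the number of triplets in its longest run on the y axis. The 11 fibrillar genes (red squares, some coinciding) lie at 2 to 3 runs and the 5 type IV genes (blue circles) at 22 to 27 runs, with multiplexins (light blue diamonds) and other collagens (grey triangles) between them or below.

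Genes were described by the authors' mean normalised count and, for any comparison between genes, by that mean per kb of the gene's exon bases. Genes at a mean of at least 10 are named with their values. Of the 51 genes, 24 reached this level, or 47.1%, against 12874 of all 19429 listed genes, or 66.3%. Among listed protein-coding genes the share was 73.2%. By class, 10 of 18 basement membrane genes (55.6%), 7 of 11 fibrillar genes (63.6%) and 7 of 22 other collagens (31.8%) reached it. The median mean over the 51 genes was 8.217, at percentile 32.2 of all listed genes, whose median was 63.16. A mean of at least 100 was reached by 11 genes, of which 8 were basement membrane genes, 2 fibrillar and 1 another collagen. In RNA from a whole culture, a low level in every cell and a higher level in few cells cannot be told apart.

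**Figure D2:**
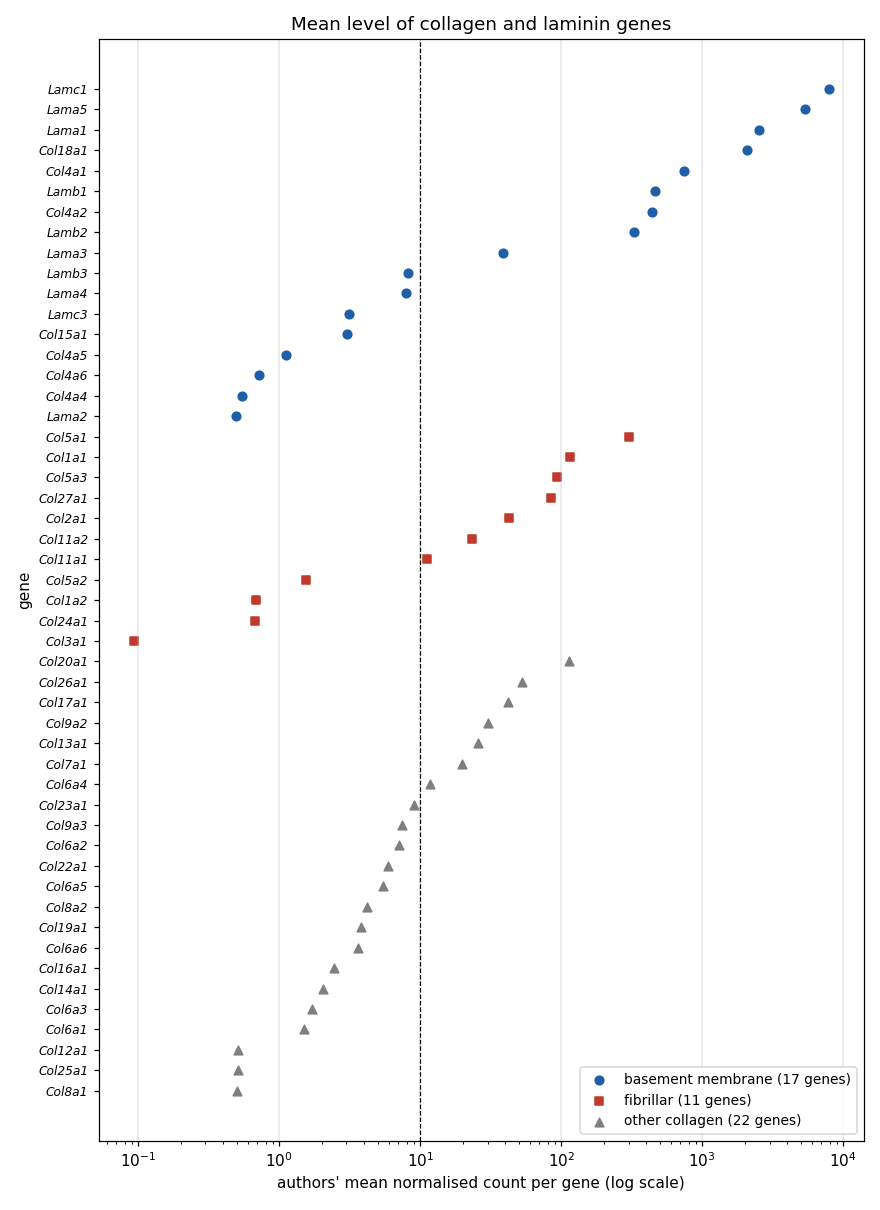
The authors' mean normalised count (x axis, log scale) of the 50 genes described, ordered within basement membrane genes (blue circles), fibrillar collagens (red squares) and other collagens (grey triangles). The dashed line marks a mean of 10, reached by 7 fibrillar and 7 other collagen genes, and the points of the basement membrane genes run from 0.4951 to 7891.

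**Figure D3:**
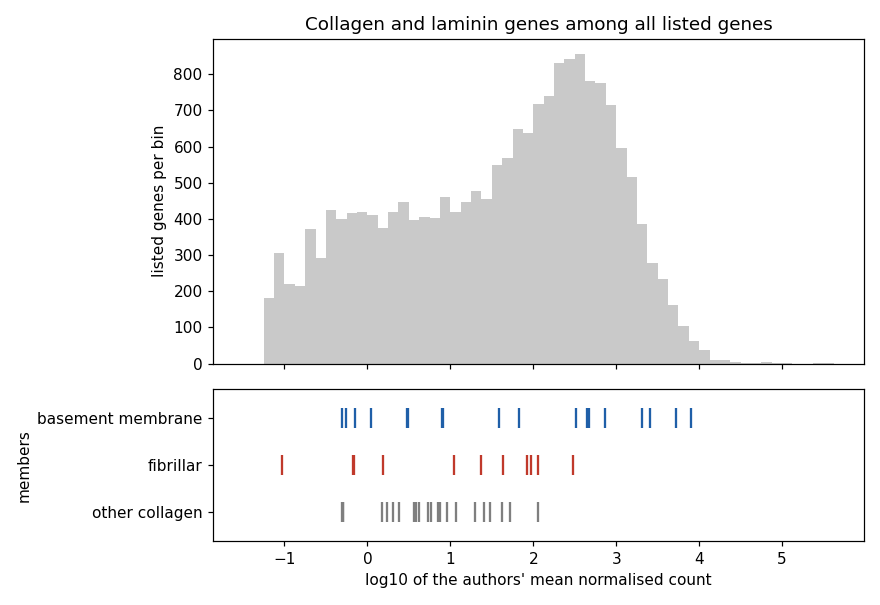
The upper panel shows how many of the 19429 listed genes fall in each bin of the log10 mean normalised count, and the ticks below mark the 51 collagen and laminin genes by class. The members' median of 8.217 lies below the median of all listed genes, 63.16, while the highest basement membrane genes lie in the upper tail.

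Most of the collagen and laminin RNA came from a few basement membrane genes. Summed per kb, the 18 basement membrane genes made up 93.96% of the total of 2402, the fibrillar genes 3.423% and the other collagens 2.613%. Most of the basement membrane share was laminin, with Lamc1 at 953.9, Lama5 at 466.8 and Lama1 at 260.9 per kb. Among collagens alone the contrast was smaller, with type IV genes at 166.4 and multiplexins at 294.3 against 82.25 for the fibrillar genes. The 8 highest genes per kb of exon bases were all of the basement membrane class. In order these were Lamc1, Lama5, Col18a1, Lama1, Col4a1, Col4a2, Lamb2 and Lamb1. The order within these genes depended in part on the length. By the longest transcript Lamb1, at 80.26 per kb, stood above Col4a2, at 68.38, and by the mean with no length Lamb1 stood above Col4a2 and Lama1 above Col18a1. All 51 genes together held 0.191% of the summed mean of all genes.

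Among the laminin genes, each kind of chain was led by 1 or 2 genes. Lamc1, the common gamma chain (chr1:153218922-153332786, minus strand), had a mean of 7891, or 953.9 per kb, which placed its mean at percentile 99.35 of all listed genes. Lamc3 had a mean of 3.112, and 6.27% of its exon bases overlap a gene on the opposite strand.

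The alpha chains decide which receptors a laminin binds. Lama5 (chr2:180176373-180225859, minus strand), a broadly expressed chain of epithelial basement membranes, had a mean of 5316 and a level of 466.8 per kb. Lama1 (chr17:67697265-67822645, plus strand), the chain of the first embryonic basement membranes, had a mean of 2526 and a level of 260.9 per kb. The level per kb of Lama5 was 1.79-fold that of Lama1, and Lama5 made up 63.8% ± 0.369 of the summed alpha level per kb, where the error is the 95% half-width from counting alone. Lama3, a chain of the epithelial laminin that anchors skin, had a mean of 38.53, and Lama1 was 72.7-fold higher than Lama3 per kb. Lama4, a chain of vessels, had a mean of 7.89, and Lama2, the muscle chain, a mean of 0.4951, which corresponds to only 5 to 8 reads over all libraries.

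The beta genes were lower than the leading alpha and gamma genes. Lamb1 (chr12:31265234-31329644, plus strand), the beta chain of early embryonic laminins, had a mean of 464.2 and a level of 46.81 per kb. Lamb2 (chr9:108479736-108490530, plus strand), the beta chain of nerve, muscle and kidney basement membranes, had a mean of 328.7 and a level of 54.04 per kb. Lamb2 was thus the higher by all exon bases, with 52.9% ± 1.19 of the summed beta level, but by the longest transcript, the coding length or no length Lamb1 was the higher, with Lamb2 at 41.0% to 41.6%. Lamb3, which pairs with the chain of Lama3, had a mean of 8.217. The summed alpha level per kb was 7.17 ± 0.181 times the summed beta level and the summed gamma level 9.43 ± 0.238 times it (95% counting half-widths). With the longest transcript these ratios were 5.25 and 7.47, with coding length 5.11 and 11.2, and with no division by length 9.85 and 9.94, so beta was the lowest kind of chain under every length used.

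**Figure D4:**
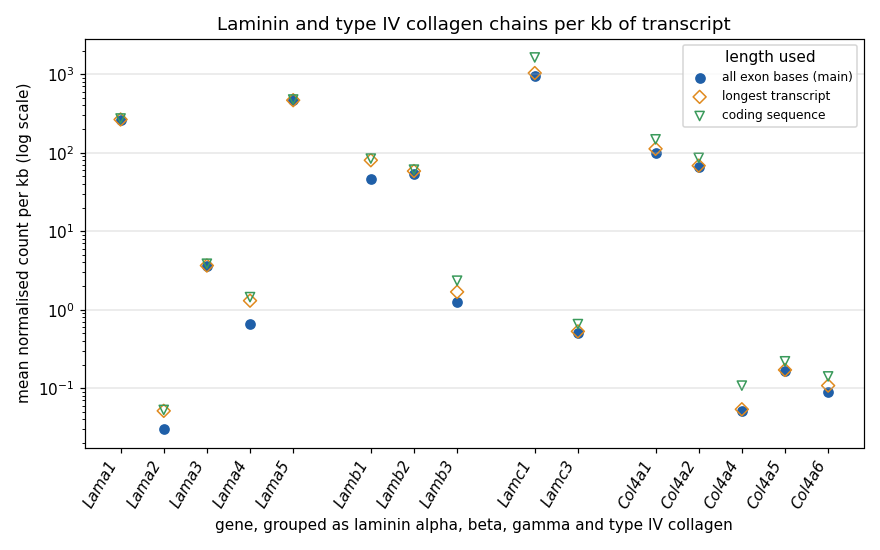
Level per kb (y axis, log scale) of the laminin and type IV collagen genes described, with the authors' mean divided by all exon bases (filled circles), the longest transcript (diamonds) or the coding sequence (triangles). Lamc1, Lama5 and Lama1 stand at 260.9 per kb or more whichever length is used, and the order of Lamb1 and Lamb2 depends on the length.

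Type IV collagen was carried by the pair Col4a1 and Col4a2, which make the chains of its most widespread form. Col4a1 (chr8:11198423-11312826, minus strand) had a mean of 742.0, or 99.41 per kb, and Col4a2 (chr8:11312805-11449287, plus strand) a mean of 441.1, or 66.64 per kb. These genes point away from each other and their annotated ends overlap by 22 bases. Col4a1 was 1.49 ± 0.0596 times Col4a2 per kb, and 1.64 to 1.72 times with the other lengths or none, so the order held under each. The other listed type IV genes encode the chains of kidney and other specialised basement membranes. Col4a5 and Col4a6, a second divergent pair 1308 bases apart on chromosome X, had means of 1.118 and 0.7178, and Col4a4 had 0.5448. Col4a2 was 400-fold higher than Col4a5 per kb, where the mean of Col4a5 stands for only 10 to 19 reads over all libraries. The 5 type IV genes made up 27.5% ± 0.455 of the level per kb of all collagens.

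Of the multiplexins, Col18a1 (chr10:77052178-77166548, minus strand), whose C-terminal fragment is endostatin, had a mean of 2063 and a level of 293.9 per kb, the highest of the 40 collagens. It was 2.96-fold above Col4a1 per kb. The related Col15a1 had a mean of 3.001, which stands for 27 to 53 reads over all libraries, so Col18a1 was 622-fold higher per kb.

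The fibrillar genes were low beside these but not all near 0. Col5a1 (chr2:27886425-28039514, plus strand), a chain of the minor fibrillar collagen that starts fibres, led them with a mean of 300.6 and 35.41 per kb. Col1a1, the main chain of skin and bone collagen (chr11:94936224-94953042, plus strand), had a mean of 114.7 and 17.47 per kb, and Col5a1 was 2.03-fold higher than it per kb. Col5a3, another type V chain, had a mean of 92.91, and Col27a1, a collagen of cartilage, 84.67. Col2a1, the main cartilage collagen, had a mean of 42.69. Its partners Col11a2 and Col11a1 had means of 23.41 and 11.17. The 4 fibrillar genes under a mean of 10 were Col5a2 at 1.552, Col1a2 at 0.6889, Col24a1 at 0.6758 and Col3a1 at 0.09302.

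The chains of a given fibrillar collagen were thus unequal in RNA. Type I collagen is normally assembled from the products of Col1a1 and Col1a2, yet Col1a1 was 315-fold above Col1a2 per kb, and 150-fold or 157-fold by the longest transcript or coding length. The mean of Col1a2 stands for 6 to 12 reads over all libraries against 999 to 2028 for Col1a1. Col3a1, the collagen of soft tissue and vessel walls, had a mean equal to a single read in a single library. Its neighbour Col5a2 lies 24614 bases away, and 14 to 27 reads stand behind its mean.

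Of the other collagens, 7 reached a mean of 10, and none reached the level per kb of Col5a1. Col20a1, a collagen that binds to fibre surfaces, was the highest by exon bases, with a mean of 112.8 and 21.93 per kb, but by coding length Col26a1 stood above it, at 40.1 against 27.59 per kb. Col9a2, a chain of the collagen that coats cartilage fibres, had a mean of 30.35 and 9.805 per kb. The transmembrane collagens Col17a1, of the hemidesmosomes of skin, and Col13a1, of cell adhesion sites, had means of 41.67 and 25.81, or 6.933 and 5.605 per kb. Col26a1 had a mean of 52.93, or 6.474 per kb of exon bases. Col7a1, the anchoring fibril collagen that ties basement membrane to dermis, had a mean of 19.78. Of the 6 beaded filament (type VI) genes only Col6a4 reached 10, with a mean of 11.66, and the main type VI chains Col6a1, Col6a2 and Col6a3 had means of 1.492, 7.11 and 1.705.

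The remaining 15 other collagens had means from 0.4982 to 9.034, with Col23a1 just under the limit at 9.034 and Col9a3 at 7.44. The exons of Col9a3 overlap those of Tcfl5 on the opposite strand over 6.07% of its bases, and Tcfl5 had a mean of 227.4. Whether counting used the strand is not given in the sources used here, so the part of such reads in the value of Col9a3 cannot be told apart. The fibre-associated Col22a1, Col19a1, Col16a1 and Col14a1 had means from 2.055 to 5.892, as did the type VI genes Col6a5 and Col6a6 and the short chain gene Col8a2. Col12a1, Col25a1 and Col8a1 had means of 0.4982 to 0.5117, which is 5 to 9 reads each, and counts this small give no order among them.

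The series concerns TET1, an enzyme that oxidises methylated cytosine, which occurs mainly at CG dinucleotides (CpG), so the CpG content of the promoters was also read. DNA methylation itself was not analysed here. RefSeq windows from 250 bases before to 50 bases after the start (GRCm38.p6) were held for 37 of the 51 genes. The CpG ratio is the number of CpGs divided by the number expected from the C and G content of the window. Over the 17 genes at a mean of at least 10 the median ratio was 0.607, with 9 of them (52.9%) at 0.6 or more. Over the 20 genes under 10 the median was 0.416, with 4 of them at 0.6 or more. Among all listed genes with a window the same split gave medians of 0.771 and 0.346 and shares of 74.0% and 27.0%. The medians of the collagen and laminin genes differed in the same direction, with a smaller gap. Their half-widths were 0.243 and 0.259, each wider than that gap, so neither its direction nor its size is resolved. Split at a mean of 5 the medians were 0.538 and 0.456, and split at 20 they were 0.615 and 0.39. These are descriptions without a test.

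The promoters of 4 genes, chosen after their values were seen, show the range. They are written 5′ to 3′ on the strand of the gene with each CpG in capitals. Col4a1 has the highest ratio of the 37, Lama5 the highest mean, Lamb2 a low ratio at a mean over 100, and Col3a1 the lowest mean. The windows are chr8:11312777-11313076 (minus strand) for Col4a1, chr2:180225810-180226109 (minus strand) for Lama5, chr9:108479612-108479911 (plus strand) for Lamb2 and chr1:45311288-45311587 (plus strand) for Col3a1.
Col4a1: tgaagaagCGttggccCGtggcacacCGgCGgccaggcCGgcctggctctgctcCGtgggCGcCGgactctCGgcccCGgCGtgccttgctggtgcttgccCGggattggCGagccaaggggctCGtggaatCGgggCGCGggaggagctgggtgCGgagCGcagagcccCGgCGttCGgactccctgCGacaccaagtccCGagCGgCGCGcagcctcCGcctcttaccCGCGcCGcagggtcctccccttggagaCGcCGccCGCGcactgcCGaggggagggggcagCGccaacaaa
Lama5: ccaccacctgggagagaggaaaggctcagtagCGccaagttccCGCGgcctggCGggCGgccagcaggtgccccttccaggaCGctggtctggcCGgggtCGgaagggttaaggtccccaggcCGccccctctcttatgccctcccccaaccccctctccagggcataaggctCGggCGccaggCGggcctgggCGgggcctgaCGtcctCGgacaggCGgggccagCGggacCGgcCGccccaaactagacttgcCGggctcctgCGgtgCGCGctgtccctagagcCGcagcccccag
Lamb2: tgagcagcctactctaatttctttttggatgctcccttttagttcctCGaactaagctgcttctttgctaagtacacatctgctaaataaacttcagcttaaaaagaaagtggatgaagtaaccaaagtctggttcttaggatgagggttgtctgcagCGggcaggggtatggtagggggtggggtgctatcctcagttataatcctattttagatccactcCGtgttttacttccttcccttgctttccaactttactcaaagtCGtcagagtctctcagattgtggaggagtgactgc
Col3a1: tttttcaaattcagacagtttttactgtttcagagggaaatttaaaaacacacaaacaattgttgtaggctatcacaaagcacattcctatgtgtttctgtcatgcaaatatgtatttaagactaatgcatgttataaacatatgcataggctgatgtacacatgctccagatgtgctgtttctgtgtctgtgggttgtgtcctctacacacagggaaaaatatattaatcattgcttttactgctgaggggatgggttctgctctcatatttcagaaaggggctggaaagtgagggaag
The Col4a1 window holds 37 CpGs at a ratio of 0.902, and the Lama5 window holds 24 at a ratio of 0.607. The Lamb2 window holds 4 at a ratio of 0.276, and the Col3a1 window holds none.

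The windows of Col4a1 and Col4a2 share 78 bases, because their RefSeq starts lie 20 bases apart on opposite strands, and the Col4a2 window has 33 CpGs at a ratio of 0.818. Of the other genes with high means, Lamb1 had a ratio of 0.615, Col18a1 of 0.538 and Col5a1 of 0.809. The ratio and the level did not always go together. Col20a1, at a mean of 112.8, had 1 CpG in its window and a ratio of 0.054, while Col8a2, at a mean of 4.175, had a ratio of 0.832. Of short motifs searched on both strands, the GC box GGGCGG was found in 25 of 37 windows (67.6%), against 56.9% of the 13948 listed genes with a window and 35.7% of all 32851 RefSeq windows. The CCAAT box, searched as CCAAT, was found in 13 of 37 (35.1%, against 38.2% of listed genes and 37.4% of all windows) and the TATA box, searched as TATAAA, in 4 of 37 (10.8%, against 8.62% and 13.6%). A match is only a match of letters, and the GC box itself contains a CpG.

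**Figure D5:**
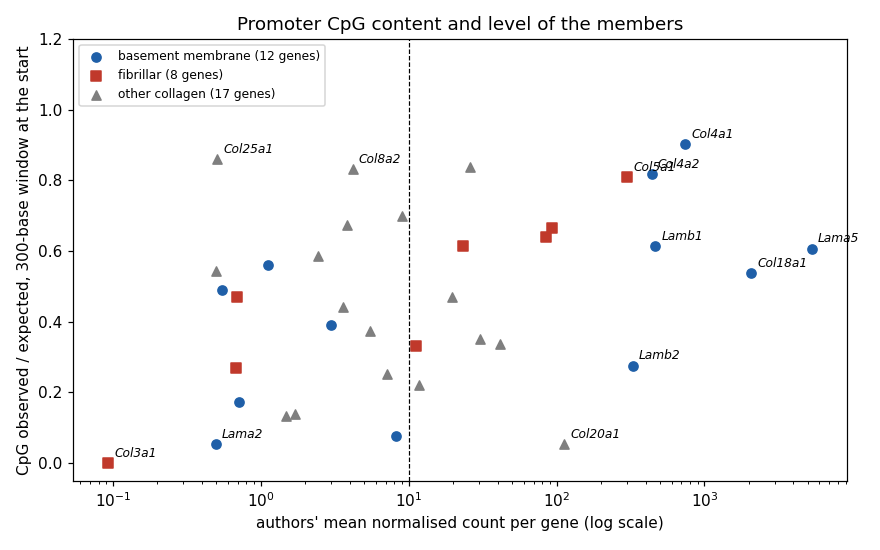
CpG ratio (y axis, observed over expected in a window of 300 bases) against the authors' mean normalised count (x axis, log scale) for the 37 genes with a RefSeq promoter, coloured by class, with the dashed line at a mean of 10. Median ratios were 0.607 at or above this line and 0.416 below it, and Lamb2 and Col20a1 lie low on the right.

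Lists of genes whose products work with collagens and laminins were read against the 73.2% of listed protein-coding genes that reached a mean of at least 10. Of 18 other basement membrane proteins 15 reached it, led per kb by Nid2 at 1871, Sparc at 1183, Nid1 at 684.6 and Hspg2 at 541.1. Nid1 and Nid2 encode nidogens, which join laminin to type IV collagen, Hspg2 encodes perlecan, a proteoglycan of the same sheet, and Sparc a collagen-binding protein. Egflam, Ntn4 and Smoc2 of this list had means from 0.97 to 4.027. Of 15 receptor genes 14 were listed and 13 reached a mean of 10, led per kb by Dag1 (dystroglycan) at 971.7, Bcam at 383.0, and the integrin genes Itga6 at 282.4 and Itgb1 at 179.6. These all encode laminin receptors or their subunits. The collagen-binding integrin gene Itga11 had a mean of 1.433, and Itga2 was not listed.

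For the folding, modification and secretion of collagen chains, 18 of 19 genes were listed and 15 reached a mean of 10. The highest per kb were Colgalt1, which adds galactose to hydroxylysine, at 690.0, P4hb, a subunit of prolyl hydroxylase, at 517.1, the collagen chaperone Serpinh1 at 292.9 and Crtap at 273.9. P4ha3, P3h2 and Colgalt2 had means from 1.173 to 3.492, and Mia2 was not listed. Of 13 genes for processing and cross-linking outside the cell, 12 were listed and 7 reached it. Pcolce, which enhances procollagen cleavage, led at 1102 per kb, followed by Adamts14 at 85.58 and the lysyl oxidase genes Loxl2 at 74.48 and Loxl1 at 27.13. Loxl4, Adamts3, Loxl3, Tll1 and Lox had means from 1.258 to 9.26, and Tll2 was not listed.

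The label of the cells was checked against marker genes. All 10 embryonic stem cell markers were high, with means from 977.2 to 23079, Pou5f1 at 2011 and Nanog at 5767 among them. Primitive and parietal endoderm cells are known to make large amounts of laminin and type IV collagen. Of 12 of their markers 8 reached a mean of 10, against 73.2% of listed protein-coding genes, and 12 genes are too few to tell these shares apart. The means of the 12 markers ranged from 2.649 to 330.5. The transcription factors among them were Sox7 at 330.5, Gata4 at 76.79, Gata6 at 17.6, Sox17 at 10.17 and Foxa2 at 5.161. Of the other markers, Cubn, Dab2, Srgn and Pdgfra had means of 126.7, 123.1, 77.81 and 15.72. Amn, Thbd and Plat had means of 8.283, 4.078 and 2.649. Of 10 fibroblast markers 3 were listed, Thy1 at 194.1, Pdgfrb at 83.7 and Twist1 at 17.15. The other 7, Postn, Lum, Dcn, Twist2, Prrx1, Fap and S100a4, were not listed. The part of such cells in the levels of the collagen and laminin genes was not tested.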

How the data were processed

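Ribosomal RNA was removed by the authors, and libraries were sequenced from one end over 50 bases. Per the labels, STAR 2.5.3a aligned the reads to GRCm38.p6, and it also gave the gene counts. The authors normalised the counts with DESeq2 1.20.0. The deposited signal used here is the mean normalised count per gene, that is, counts divided by a size factor per library and averaged by the authors over the libraries of their fit. The table also holds the log2 fold change of D2018A against WT, its standard error, a test statistic, a p-value and an adjusted p-value, all from the authors' own comparison. These were not used, so no genotype comparison was made. No values per library were used, and the depth per library is unknown.

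The smallest means show steps that a single read in a single library leaves. Steps shared by at least 30 genes and not sums of lower steps numbered 12, which points to 4 libraries beyond the 8 described, although no values per library were at hand to check this. With 12 libraries the size factors ranged from 0.726 to 1.47, and the mean per read from 0.05654 to 0.11482 bounded the reads behind each gene. The summed mean over all listed genes was 10937569.

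Levels per kb were the mean divided by the union of exon bases in GENCODE M21, whose gene positions were those of the table for 49 of the 51 genes. Counting half-widths (95%) used the fewest reads possible and cover counting error only, since reads are not independent molecules. Promoter windows were from RefSeq, and 32 of 37 starts lay within 500 bases of the table's. Col1a1, Col2a1, Col5a2, Col9a3, Col12a1, Col14a1, Col22a1, Col26a1, Lama1, Lama3, Lama4, Lamc1 and Lamc3 had no window. Coding sequences were the longest reading frames of GENCODE transcripts, 50 of 51 as long as annotated. Python 3.11.15, pandas 2.3.3, numpy 2.4.6 and matplotlib 3.10.9 were used. The step search and the half-widths were tested on simulated data. Genes at a mean of at least 10 were named, and of each companion list the 4 highest per kb and those under 10. Of the 51 genes, 1 is counted in the totals but not reported here, nor is a gamma chain share. The members and lists were chosen with earlier results of these data known.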

Additional observations from a re-analysis of the deposited data

How the results depend on the processing

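The results carry no replicate error, because the values used are a single mean per gene, and library depth limits genes at a few reads. No paired analysis was possible because no values per library were used. Of 41 alternatives, 26 moved a value by more than its half-width, which came from counting or, for the percentile, from the number of listed genes. Numbers of genes at other limits had no half-width and were judged by their ratio. None of the alternatives turned the order of the classes by summed level. The order of some single genes turned with the length, for example Lamb1 against Lamb2 and Col4a2, Lama1 against Col18a1 and Col26a1 against Col20a1. The cause was not tested except where the length itself sets the value.

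Against protein-coding genes only, the percentile of the members' median was 25.4, and with a mean of at least 1 required it was 27.8. The basement membrane share was 93.3% with the longest transcript, 92.5% with coding length, 95.1% with no length and 94.3% for genes at a mean of at least 10, and the fibrillar share was 3.6%, 3.8% and 3.22% with the first 3 of these. The type IV share of collagens was 24.9% and 26.7% with the longest transcript and coding length. With the longest transcript, coding length and no length, the Lama5 share of alpha chains was 63.3%, 63.1% and 67.4%, and the Lamb2 share of beta chains 41.6%, 41.3% and 41.0%. The ratio of Col4a1 to Col4a2 was 1.64, 1.72 and 1.68, that of alpha to beta chains 5.25, 5.11 and 9.85, and that of gamma to beta chains 7.47, 11.2 and 9.94. At limits of 5 and 20 in place of 10, 31 and 21 of the 51 genes passed. Among them at 5 were 12 of 18 basement membrane and 7 of 11 fibrillar genes, and at 20 there were 10 and 6. With only the windows whose RefSeq start was near, the median CpG ratios were 0.573 and 0.416. Coding lengths from GENCODE, the chain ratios and the promoter alternatives were chosen after seeing the data, and coding length from RefSeq proteins was not run.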
